A study of Mus musculus with 2 samples.

Results

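Piezo1, Piezo2, Trpv4, Klf2, Klf4, Yap1 and Wwtr1 are 7 mouse genes through which cells sense flow and stretch, and they are 7 of the 23521 genes listed in the deposited tables. They were chosen by name, with no threshold on their values, and all 7 had a row in both tables. Cells were sorted by flow cytometry from the superficial cervical lymphatics that drain into the submandibular lymph nodes, and their RNA was counted with a droplet 3′ kit. Both groups were FVB/N mice that carry Prox1-GFP, a reporter of the transcription factor that sets lymphatic endothelial identity. The adult library held cells of 6 mice of 12 weeks, and the aged library held cells of 6 mice of 93 weeks. The labels name no treatment, and no cell is tied to a mouse in the tables used here, so each age is 1 sample.

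Piezo1 and Piezo2 are channels that open when the membrane is stretched, and Trpv4 is a calcium channel that responds to swelling, warmth and shear. Klf2 and Klf4 are zinc-finger transcription factors that laminar flow induces in endothelium through a kinase cascade ending at MEF2 factors. Yap1 and Wwtr1 (the gene of TAZ) are co-activators that bind TEAD factors and enter the nucleus when cells are spread or stretched, unless the Hippo kinases hold them in the cytoplasm. In lymphatic vessels, Piezo1 and the response to flow are known for their part in forming and keeping valves. RNA levels say nothing of channel opening or of where a co-activator sits in the cell.

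The adult table holds 7308 cells with a median of 12087.5 UMIs (counted RNA molecules). The aged table holds 13969 cells, of which 6977 carry barcodes that also stand in the adult table, 95.5% of the adult cells. These copies hold a median of 0.506 times the UMIs of their adult counterpart and were counted once, as adult, which leaves 6992 aged cells. The cells fell into 22 clusters without use of the 7 genes, and clusters were named from markers. The lymphatic endothelial-like class had 274 adult and 89 aged cells, with median UMIs of 5983 and 5232. The blood endothelial-like class had 627 and 421 cells (medians 7525 and 6284), the smooth muscle-like class 362 and 274 (6423 and 5687.5), and the fibroblast-like class 6045 and 6208 (13165 and 12224). Of 7 immune markers, Ptprc had 0 UMIs in the 3 vascular classes of both libraries, and others were present at low levels. The 7 summed to 9.31 and 14.0 CPM in adult and aged lymphatic cells (3 and 2 of them with a UMI) and to 14.6 and 6.59 CPM in blood endothelial cells (5 and 4). In smooth muscle-like cells they summed to 81.3 and 53.9 CPM (5 and 4). Their part in the results was not tested. Blood endothelial cells were not free of the 7 lymphatic markers. These summed to 1580 and 1771 CPM there, against 23141 and 18572 CPM in lymphatic cells. A finer group of this blood endothelial class, with 156 adult and 238 aged cells, had Prox1 and the GFP transcript among its leading genes. The 7 fibroblast markers summed to 222 and 397 CPM in adult and aged lymphatic cells and to 387 and 401 CPM in blood endothelial cells, against 22562 and 26375 CPM in fibroblasts. Smooth muscle-like cells held 6660 and 4988 CPM of these markers. They also held 1821 and 1917 CPM of 6 pericyte markers, beside 16223 and 15673 CPM of the smooth muscle markers. Pericytes were not kept apart as a class, so this class can include them. CPM is the usual scaled count: the UMIs of a gene over all UMIs of its class. With 1 library per age there is no test of age, and all intervals are 95% intervals that cover counting error only, not mice or libraries.

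Of the channels, Piezo1 was at its highest level in the endothelial classes, though not confined to them. Its level was 181 CPM (interval 161 to 202) in adult and 213 CPM (174 to 257) in aged lymphatic endothelial-like cells. In blood endothelial-like cells it was 193 CPM (181 to 206) and 237 CPM (219 to 256). Smooth muscle-like cells held 29.5 and 30.2 CPM, and fibroblast-like cells 30.9 and 30.4 CPM. Among fibroblast clusters of at least 50 cells it ran from 12.6 to 70.1 CPM in adult and from 12.8 to 101 CPM in aged cells. After adding 1 CPM, the lymphatic level stood 5.71-fold above the fibroblast level in the adult library and 6.80-fold above it in the aged library. The 2 endothelial classes did not differ beyond counting error in either library, and neither did smooth muscle and fibroblasts. With every cell thinned to 3000 UMIs, a Piezo1 UMI was found in 40.1% of adult lymphatic cells (34.0 to 46.4%) and in 7.58% of adult fibroblasts (6.92 to 8.28%). Without thinning the shares were 54.4% and 25.6%, since fibroblasts carried more UMIs per cell.

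**Figure D1:**
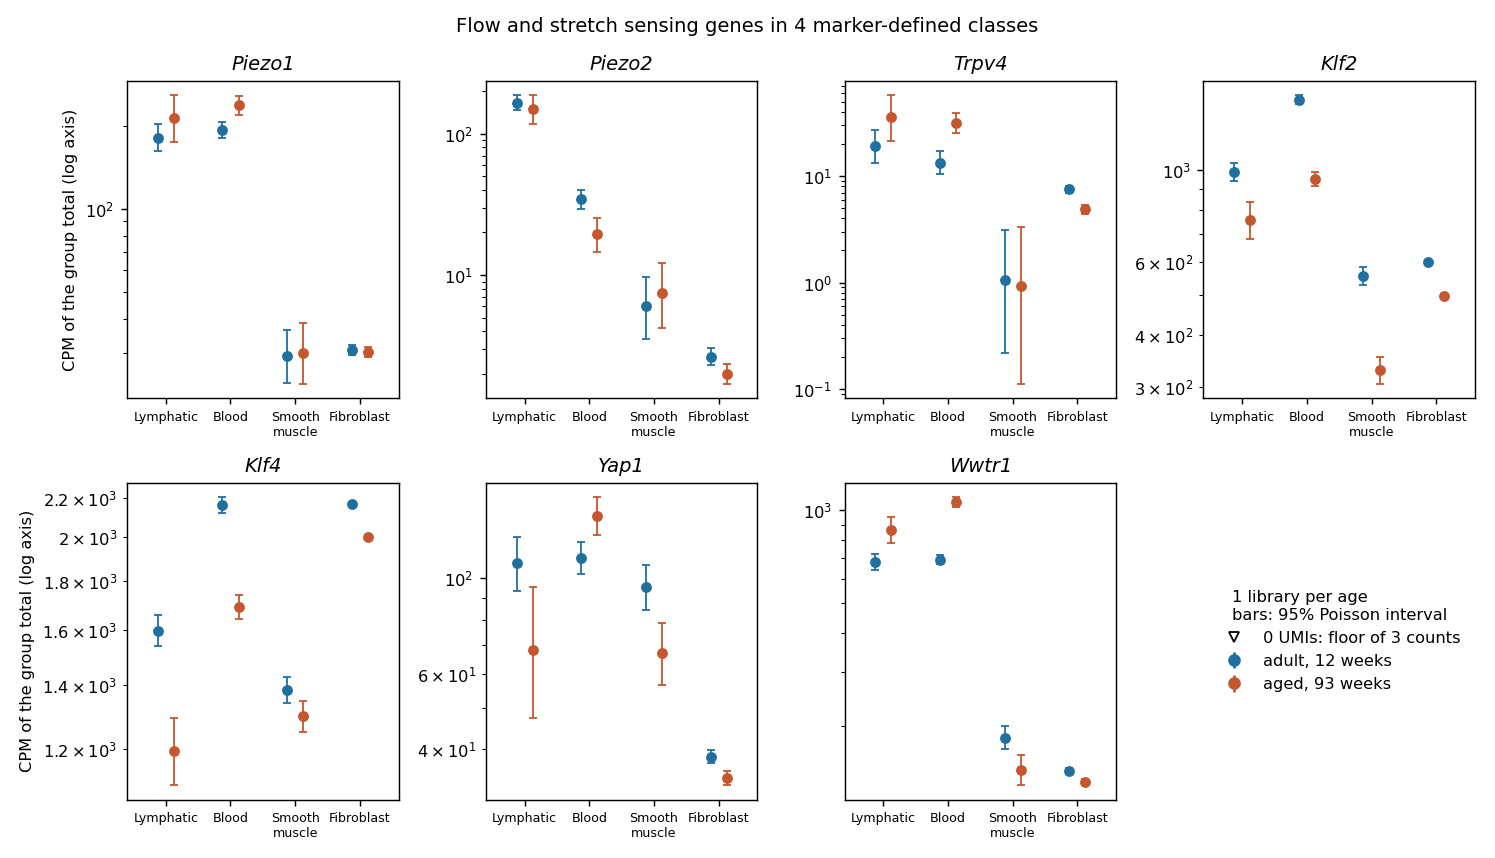
Level of each gene (CPM of the class total, log axis, scales differ between panels) in the 4 classes, with adult cells in blue and aged cells in orange and bars for 95% Poisson intervals. Piezo1 and Wwtr1 separate the endothelial classes from the others, Piezo2 is highest in lymphatic cells, and Klf4 spans a narrow range.

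Piezo2 had the steepest pattern of the 7 genes over the classes. It was at 166 CPM (285 UMIs) in adult and 148 CPM (74 UMIs) in aged lymphatic endothelial-like cells, and at 34.4 and 19.4 CPM in blood endothelial-like cells. Smooth muscle-like cells had 6.03 and 7.43 CPM, from 17 and 16 UMIs. Fibroblast-like cells had 2.65 and 2.01 CPM, and a Piezo2 UMI stood in 1.65% of adult fibroblasts at a median depth of 13165 UMIs, against 30.3% of adult lymphatic cells at 5983.

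Within the lymphatic class, nearly all Piezo2 came from 1 cluster. This cluster is led by Ccl21a, Reln and Lyve1, genes of the initial, absorbing lymphatics, and is called capillary-like here (101 adult and 19 aged cells). It held 285 Piezo2 UMIs in the adult library, or 522 CPM (463 to 586), with a UMI in 82.2% of its cells. Its 19 aged cells held 73 UMIs, or 955 CPM (748 to 1201), with a UMI in 94.7% of them. The other lymphatic cluster, led by Prox1, the GFP transcript and Coch, had 0 Piezo2 UMIs in 173 adult cells and 1 UMI in 70 aged cells. With this 0 set to 3 counts, or 2.56 CPM, the adult capillary-like level was 204-fold higher. This fold leaves out the counting error of the capillary-like level, so it is not a strict lower bound. In the aged library the ratio was 403, with a counting interval from 70.1 to 16140. All 4 of the lymphatic valve markers looked for were detected in the Prox1/Coch cluster, and Cldn11 was among its leading genes. These markers had a mean log2 difference of 2.76 from the other lymphatic cluster, beside 3.27 for 4 venous markers, 2 of them detected. In a finer clustering of the class, only the group led by Tmem108 and Fxyd2 had all 4 valve markers detected. Their mean was above that of the other lymphatic cells there and in the group led by Spp1 and Coch. It was below in the groups led by Cmah and Ackr4 and by Csf2rb, so the Prox1/Coch cluster is not called valve-like here.

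In blood endothelial cells Piezo2 was likewise concentrated in 1 cluster. The cluster led by Rbp7 and Cd300lg, called blood capillary-like, had 107 CPM (158 UMIs) in the adult and 92.9 CPM (53 UMIs) in the aged library. The cluster led by Vwf and Olr1, called venous-like, had 9 and 0 UMIs. The cluster led by Gja5 and Sema3g, called arterial-like, had 0 and 0. The capillary-like level was thus 35.0 times the venous-like level in adults (18.0 to 77.9). In the aged library it was 59.7-fold higher with the venous-like count of 0 set to 3. Against the arterial-like cluster, with each 0 set to 3 in the same way, it was 16.2-fold higher in adult and 7.18-fold higher in aged cells. Among fibroblast clusters, Piezo2 reached 49.0 CPM (106 UMIs) in adult cells of the cluster led by Acsbg1, Fmod and Col11a1, in which 57 aged cells held 0 UMIs. The median over 13 adult fibroblast clusters was 0.888 CPM.

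**Figure D2:**
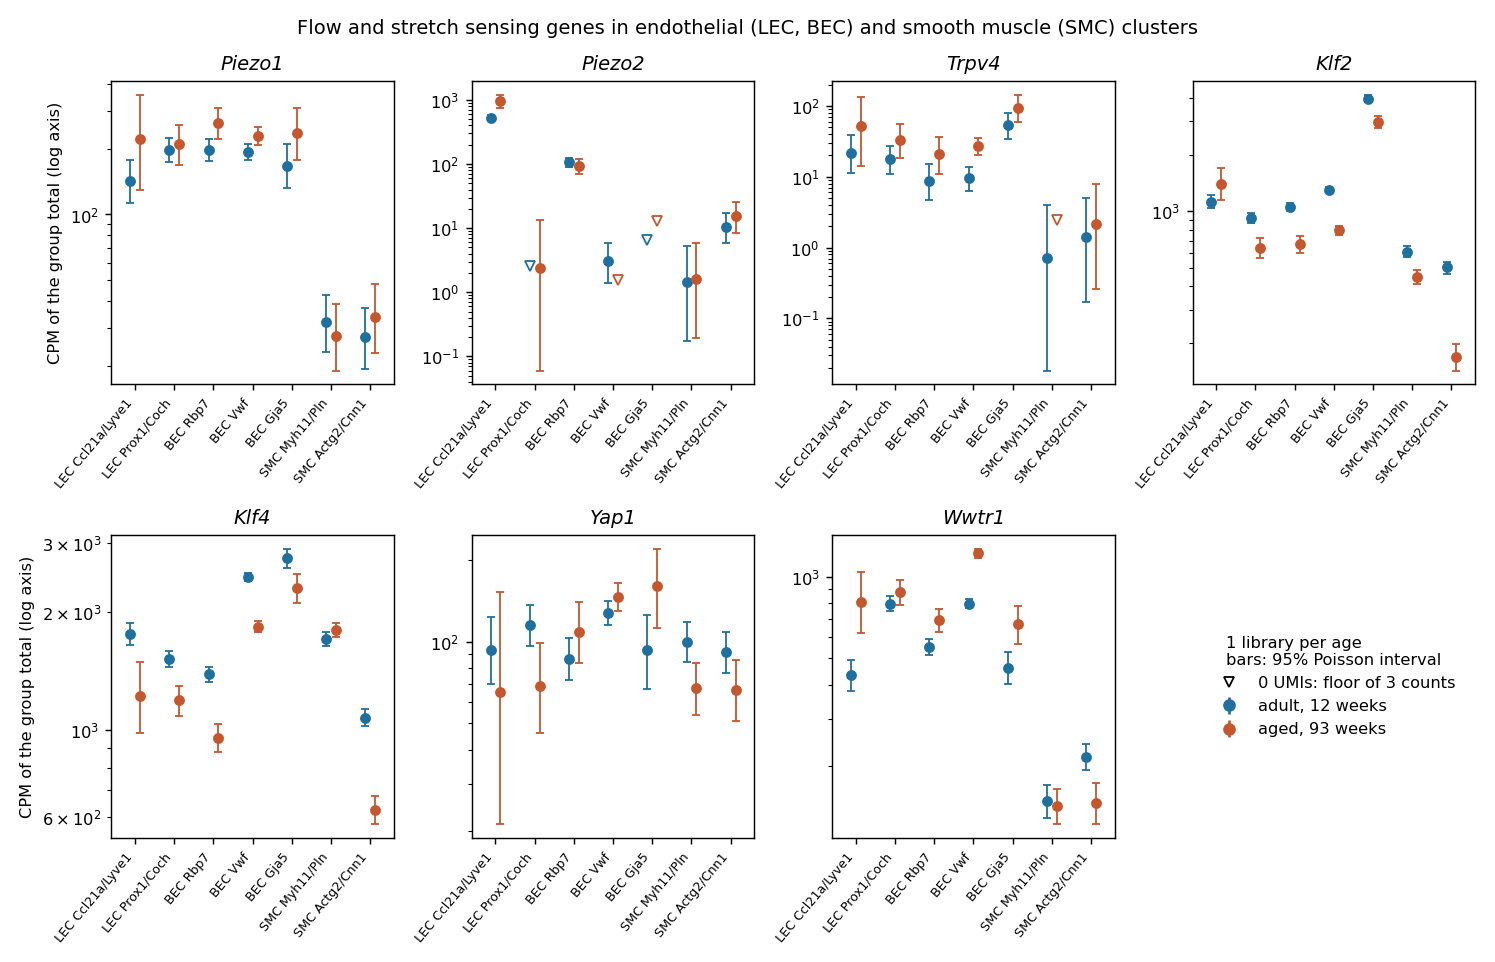
Level of each gene (CPM of the cluster total, log axis, scales differ between panels) in 2 lymphatic (LEC), 3 blood endothelial (BEC) and 2 smooth muscle (SMC) clusters, with adult cells in blue, aged cells in orange, 95% Poisson intervals as bars and open triangles where no UMI was found. Piezo2 stands out in the Ccl21a/Lyve1 and Rbp7 clusters, and Trpv4 and Klf2 in the Gja5 cluster.

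Piezo1 did not share this restriction. Among the 5 endothelial clusters, its adult level ran from 143 CPM in capillary-like lymphatic to 199 CPM in Prox1/Coch lymphatic cells. In the aged library it ran from 211 CPM in the Prox1/Coch cluster to 263 CPM in blood capillary-like cells. The 2 channels therefore divided the lymphatic class differently: 25.1% of its adult Piezo1 UMIs and 100% of its adult Piezo2 UMIs came from the capillary-like cluster, which made up 36.9% of the cells.

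Trpv4 was sparse. It had 33 and 18 UMIs in adult and aged lymphatic endothelial-like cells (19.2 and 36.1 CPM), and 65 and 86 UMIs in blood endothelial-like cells (13.4 and 31.5 CPM). Fibroblast-like cells were lower, at 7.50 and 4.86 CPM, and smooth muscle-like cells had 3 and 2 UMIs in all. The arterial-like cluster had the highest level of the endothelial clusters in both libraries, at 53.1 CPM (34.0 to 78.9) in adult and 94.9 CPM (59.5 to 144) in aged cells. A finer group within the lymphatic class, led by Tmem108 and Fxyd2, was at 58.0 CPM (25.1 to 114) in 16 adult cells. A UMI was found in 43.8% of these. The group was at 53.5 CPM (21.5 to 110) in 20 aged cells, and its levels rest on 8 adult and 7 aged UMIs. A Trpv4 UMI was found in 28.6% of the adult arterial-like cells, against 0.829% of adult smooth muscle-like cells at a similar median depth (6505 and 6423 UMIs).

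Both KLF factors were abundant in every class. Klf2 was highest in blood endothelial-like cells, at 1477 CPM (1443 to 1512) in adult and 953 CPM (917 to 990) in aged cells. Lymphatic endothelial-like cells followed with 989 and 758 CPM, then fibroblast-like cells with 599 and 498 CPM and smooth muscle-like cells with 556 and 329 CPM. All neighbours in this order differed beyond counting error in both libraries. Arterial-like cells stood above the other endothelial clusters, at 3959 CPM (3778 to 4147) in adult and 2981 CPM (2763 to 3212) in aged cells. Next were venous-like cells in the adult library (1304 CPM) and capillary-like lymphatic cells in the aged library (1400 CPM). Aged venous-like cells had 793 CPM and aged blood capillary-like cells 668 CPM, beside 758 CPM in the aged lymphatic class. Klf4 was flatter. Adult fibroblast-like and blood endothelial-like cells had 2169 and 2162 CPM and could not be told apart, and lymphatic and smooth muscle-like cells had 1596 and 1382 CPM. In the aged library these 4 values were 2003, 1691, 1193 and 1298 CPM.

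The upstream sequences of both KLF genes are shown because both factors were lower in the sums of both endothelial classes of the aged library. They are the 250 bases before the annotated start, 5′ to 3′ on the gene's strand, from RefSeq on GRCm38.p6. Klf2 lies on the plus strand (chr8:72318812-72319061) and Klf4 on the minus strand (chr4:55532476-55532725). Capitals mark a MEF2 motif (the first run in Klf2) or the KLF motif CACCC or its reverse complement GGGTG (the second run), searched on both strands.
Klf2: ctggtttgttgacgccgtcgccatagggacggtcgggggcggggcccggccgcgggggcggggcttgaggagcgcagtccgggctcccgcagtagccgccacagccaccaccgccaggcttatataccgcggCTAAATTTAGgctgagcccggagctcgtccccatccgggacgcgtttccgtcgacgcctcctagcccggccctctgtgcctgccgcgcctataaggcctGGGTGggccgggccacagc
Klf4: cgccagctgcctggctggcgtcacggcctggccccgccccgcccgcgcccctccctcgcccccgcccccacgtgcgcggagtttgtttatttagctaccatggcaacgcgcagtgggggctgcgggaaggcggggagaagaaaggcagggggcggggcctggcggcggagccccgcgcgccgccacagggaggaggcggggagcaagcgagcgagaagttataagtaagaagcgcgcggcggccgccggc
The Klf2 window held 1 MEF2 match and 1 KLF match, and the Klf4 window held neither. Over all 32851 windows of this length, 2.92% held the MEF2 motif and 52.0% the KLF motif. A match is a description of the letters, not of a bound site.

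Of the co-activators, Wwtr1 followed the endothelial pattern of Piezo1. It was at 681 and 866 CPM in adult and aged lymphatic endothelial-like cells and at 691 and 1065 CPM in blood endothelial-like cells. Smooth muscle-like cells had 183 and 144 CPM and fibroblast-like cells 143 and 132 CPM. Yap1 was spread more evenly. In adults it was at 112 CPM in blood endothelial-like, 108 CPM in lymphatic and 95.4 CPM in smooth muscle-like cells, which did not differ from one neighbour to the next beyond counting error, and at 38.5 CPM in fibroblast-like cells. In the aged library blood endothelial-like cells had 140 CPM and stood above lymphatic cells at 68.2 CPM (47.2 to 95.3), smooth muscle-like cells at 66.9 CPM and fibroblast-like cells at 34.3 CPM.

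Over 39 points (clusters by library with at least 50 cells), the levels of Piezo1 and Wwtr1 had a Pearson correlation of 0.92, those of Yap1 and Wwtr1 0.79 and those of Klf2 and Klf4 0.64. Piezo2 and Trpv4 had 0.04. These values are descriptions: clusters of 1 library share that library, and most of them are fibroblasts. The genes with the pattern most like Piezo1 were Cdc42bpb (0.94), Ptbp3 (0.93) and Ctnnd1 (0.93), and those most like Wwtr1 were Fli1 (0.94), Garre1 (0.94) and Khdc4 (0.93). Itpr1 (0.91), Myo1d (0.89) and Sipa1l1 (0.89) were most like Yap1. Dock4 (0.87), Rin3 (0.86) and Adam10 (0.86) were most like Trpv4. Rab12 (0.86), Flii (0.78) and Orai1 (0.78) were most like Klf2. No gene passed 0.80 for Piezo2, where St8sia4 had 0.78, Rad51ap1 0.75 and Itpripl1 0.73, or for Klf4, where Aida had 0.74 and Rab1a 0.73.

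Within single cells thinned to 3000 UMIs, Klf4 was found more often beside Klf2 than without it in some classes. In adult blood endothelial-like cells, 95.6% of the cells with a Klf2 UMI also had a Klf4 UMI (93.3 to 97.3%), against 84.0% of those without Klf2 (77.1 to 89.5%). In adult fibroblast-like cells the shares were 95.1% and 86.5%, and the intervals were separate there and in aged fibroblast-like cells. In aged blood endothelial-like cells the shares, 92.1% and 86.9%, had overlapping intervals. So did those of lymphatic and of smooth muscle-like cells at both ages, with 93.9% and 81.8% in adult lymphatic cells. Yap1 and Wwtr1 showed no such gap in blood endothelial-like cells, where a Wwtr1 UMI stood in 80.8% of adult cells with Yap1 (72.9 to 87.2%) and in 81.1% of those without it (77.3 to 84.5%). Piezo1 did not separate cells by Klf2 there: 75.3% of adult cells with a Piezo1 UMI and 75.2% of those without had a Klf2 UMI.

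The comparison of ages asks whether the genes by which vessel cells read mechanical force differ between adult and aged mice. In lymphatic endothelial-like cells both KLF factors were lower in the aged library, by less than 1.5-fold, and Wwtr1 was higher. Intervals of log2 ratios were computed without the 1 CPM added to the ratios. The log2 ratio of aged over adult (after adding 1 CPM to each) was -0.38 (-0.55 to -0.22) for Klf2, from 1701 and 378 UMIs. It was -0.42 (-0.55 to -0.29) for Klf4, from 2744 and 595 UMIs, and 0.35 (0.18 to 0.51) for Wwtr1, from 1171 and 432. Piezo1, at 0.23 (-0.10 to 0.56), and Piezo2, at -0.16 (-0.55 to 0.21), did not differ beyond counting error. Of the 7 members, all measured here, 2 passed 1.5-fold, where 17.7% of the 6007 measured genes did (8.31% higher and 9.39% lower). They were Trpv4, higher at 0.88, with an interval from just under 0 to 1.78, on 33 and 18 UMIs, and Yap1, lower at -0.66 (-1.24 to -0.13) on 186 and 34 UMIs. A gene counts as measured with at least 50 UMIs in both libraries together and a UMI in 10% of the cells of at least 1 library.

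The median of the 7 ratios was -0.16, beside 0.05 for all measured genes. Both members past 1.5-fold rest on few UMIs, and neither passed in cells thinned to 3000 UMIs. Yap1 moved to -0.52 without the 1 adult lymphatic cell that held an epithelial marker UMI, and to 0.11 where cells were classed by their own marker UMIs.

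The class sum hides a split of Klf2 between the 2 lymphatic clusters, and with both weighted equally its ratio was -0.01. In Prox1/Coch cells Klf2 was lower in the aged library, 926 against 642 CPM (log2 ratio -0.53, -0.73 to -0.34). In capillary-like cells it was higher, 1126 against 1400 CPM (0.31, 0.00 to 0.61). A finer clustering of the lymphatic class was not uniform either. Klf2 was at 789 against 556 CPM in the group led by Spp1 and Coch (68 and 24 cells), and at 881 (794 to 975) against 1102 CPM (928 to 1298) in the group led by Cmah and Ackr4 (61 and 21 cells), where the intervals overlapped. It was at 754 against 336 CPM in the group led by Tmem108 and Fxyd2 (16 and 20 cells) and at 1212 against 438 CPM in the group led by Csf2rb (31 and 5 cells). The groups differed in size between the ages, and the part of this makeup in the class ratio was not tested. Between the 2 lymphatic clusters, Klf4 was lower in both, at -0.35 (-0.50 to -0.21) in Prox1/Coch and -0.53 (-0.85 to -0.22) in capillary-like cells. Piezo2, with similar class sums at both ages, was higher within capillary-like cells at 0.87 (0.48 to 1.25), while these cells made up 36.9% of the adult and 21.3% of the aged class. Wwtr1 was at 0.90 (0.48 to 1.31) in capillary-like and 0.14 (-0.04 to 0.31) in Prox1/Coch cells. The capillary-like values rest on 19 aged cells and were not tested across mice. Fewer cells of a kind and less RNA per cell cannot be told apart in the class sums, and sorting can set the share of each kind.

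In blood endothelial-like cells, Trpv4 and Wwtr1 were higher and both KLF factors lower in the aged library. Trpv4 was at 1.18 (0.75 to 1.72), from 13.4 to 31.5 CPM, and Wwtr1 at 0.62 (0.55 to 0.69), from 691 to 1065 CPM. Klf2 was lower at -0.63 (-0.70 to -0.57), from 1477 to 953 CPM. These 3 of 6 measured members passed 1.5-fold, beside 9.61% of 7224 measured genes (4.50% higher and 5.11% lower). Klf4 was lower at -0.35 (-0.40 to -0.30), and Piezo1 and Yap1 were higher at 0.30 (0.15 to 0.44) and 0.32 (0.13 to 0.51). Piezo2 was not measured by the rule, with a UMI in 9.41% of adult and 5.94% of aged cells. Its ratio was -0.79 (-1.30 to -0.37), from 167 and 53 UMIs. Within blood capillary-like cells its ratio was -0.21 (-0.69 to 0.25). These cells made up 31.7% of the adult and 21.4% of the aged class, and the part of this makeup was not tested. The median of the 6 ratios was 0.31, beside 0.03 for all measured genes. Klf2 was just short of 1.5-fold without the 15 adult and 11 aged cells that held an epithelial marker UMI, at -0.58. In cells thinned to 3000 UMIs Wwtr1 was at 0.58 and Klf2 at -0.57, just short of 1.5-fold, and Trpv4 at 0.95 was too sparse to count as measured.

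Each of the 3 blood endothelial clusters showed these directions. Klf2 was at -0.72 in venous-like, -0.66 in blood capillary-like and -0.41 in arterial-like cells, and the intervals did not reach 0. Wwtr1 was at 0.62, 0.33 and 0.53, also clear of 0. Trpv4 was at 1.41 (0.81 to 2.21) in venous-like cells, from 28 and 52 UMIs. It was at 1.16 (-0.01 to 2.50) in blood capillary-like cells and at 0.83 (-0.06 to 1.74) in arterial-like cells, so these 2 did not clear counting error. Yap1 reached 0.78 (0.10 to 1.45) in arterial-like cells. The venous-like cells made up 58.2% of the adult and 69.6% of the aged class. A finer clustering of the class shifted in makeup too: a group led by Gm14636 and Olr1, with Prox1 and the GFP transcript among its leading genes, had 156 adult and 238 aged cells, and a group led by the antigen-presenting genes H2-Ea, H2-Eb1 and Cd74 had 204 and 54. Wwtr1 was higher in the aged library in both groups, at 883 against 1270 CPM in the first and 733 against 1018 CPM in the second. Klf2 was at 1341 against 711 CPM in the first group and at 1285 (1230 to 1340) against 1128 CPM (1016 to 1249) in the second, where the intervals overlapped. Trpv4 was at 12.8 against 30.2 CPM in the first group, the one with more aged cells. In the second it was at 7.29 (3.77 to 12.7) against 9.19 CPM (1.90 to 26.9), from 12 and 3 UMIs. In the group led by Esm1 and Penk, with 140 and 49 cells, it had 6 and 0 UMIs.

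**Figure D3:**
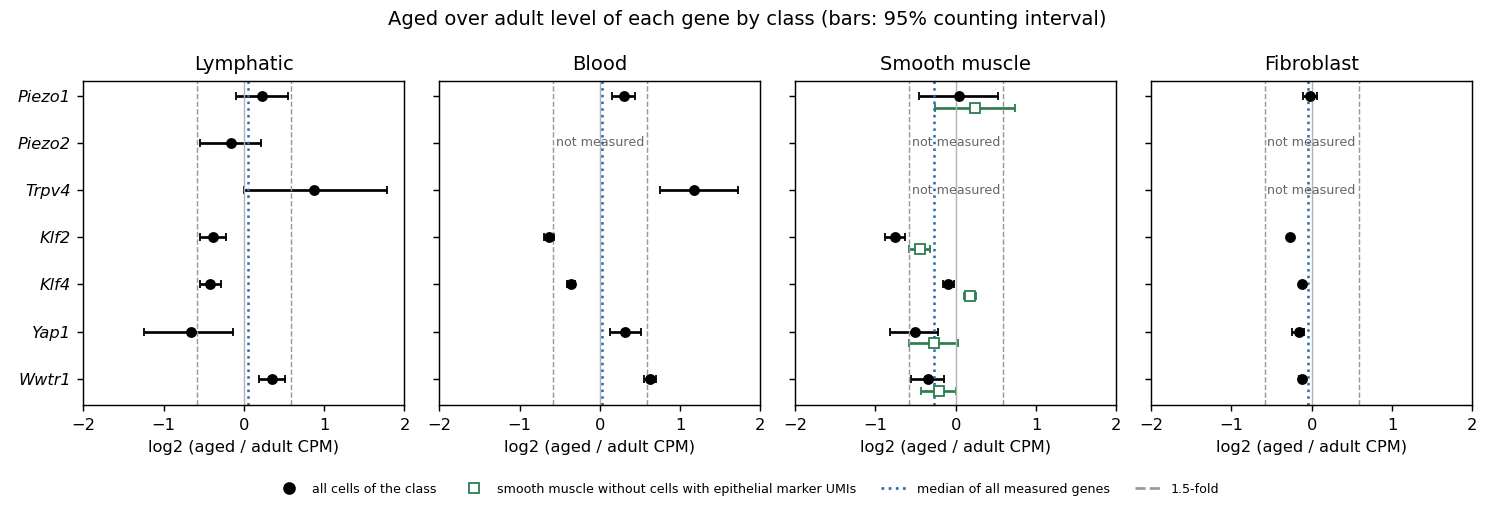
Log2 ratio of aged over adult CPM of each gene in the 4 classes, with 95% counting intervals as bars, the median of all measured genes dotted and 1.5-fold dashed. Blood endothelial-like cells show Trpv4 and Wwtr1 right of 0 and Klf2 and Klf4 left of it, and the 5 measured smooth muscle-like ratios move right once 15 aged cells with epithelial marker UMIs are left out (green squares).

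In smooth muscle-like cells, 1 of 5 measured members passed 1.5-fold, Klf2 at -0.75 (-0.89 to -0.63), where 21.3% of 7658 measured genes passed (1.33% higher and 19.9% lower). The median of all measured genes was itself -0.27. The 6 epithelial markers summed to 433 CPM in the aged class, with Epcam and Krt8 in 14 cells each, and were all at 0 UMIs in the adult class. Without the 15 aged cells that held such a UMI, the median of all genes was -0.05. Klf2 was then at -0.45 (-0.58 to -0.32), from 556 to 408 CPM, and 0 of 5 members passed 1.5-fold, beside 13.7% of genes (3.72% higher and 9.94% lower). Klf4 was at -0.09 (-0.16 to -0.02) with all cells and at 0.18 (0.11 to 0.25) without these 15. Yap1 was at -0.28 (-0.59 to 0.02), Wwtr1 at -0.21 (-0.43 to 0.00) and Piezo1 at 0.24 (-0.26 to 0.74). Both smooth muscle clusters kept Klf2 on the lower side without those cells, at -0.42 (-0.57 to -0.26) in the cluster led by Pln and Myh11 and at -0.79 (-1.05 to -0.53) in the cluster led by Actg2 and Cnn1. In the latter, Piezo1 was at 0.95 (0.21 to 1.72), from 39 and 27 UMIs.

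In fibroblast-like cells 0 of 5 measured members passed 1.5-fold, beside 5.47% of 8728 genes (1.79% higher and 3.68% lower). Klf2 was at -0.27 (-0.29 to -0.25), Klf4 at -0.11 (-0.12 to -0.10), Yap1 at -0.16 (-0.24 to -0.09), Wwtr1 at -0.12 (-0.16 to -0.08) and Piezo1 at -0.02 (-0.10 to 0.06). The 2 members not measured by the rule, for want of a UMI in 10% of the cells, were Trpv4 at -0.54 (-0.81 to -0.44), from 611 and 380 UMIs, and Piezo2 at -0.28 (-0.71 to -0.10), from 216 and 157. In the class sums, Trpv4 was thus lower in aged fibroblasts where it was higher in aged blood endothelial-like cells. The part of cluster makeup in the fibroblast ratios was not tested. Over the 13 fibroblast clusters with enough cells of both ages, Klf2 was lower beyond counting error in 9 and higher in 3. Its extremes were -0.79 in the cluster led by Cpz and Timp1 (252 against 145 CPM) and 0.25 in the cluster led by Myoc and S100a4 (605 against 721 CPM). Klf4 was lower in 9 and higher in 1. Wwtr1, lower in the sum, was higher in 3 clusters and lower in 1, and Piezo1 was higher in 4 and lower in 1. Piezo2, lower in the sum, was higher in 3 and lower in 1, the cluster led by Acsbg1, with 106 adult and 0 aged UMIs. Trpv4 was lower in 4 and higher in 1, the cluster led by Ctla2a, at 0.71 (0.01 to 1.42). The sum over all fibroblasts is weighted by clusters that differ in size between the ages: the cluster led by Rtl4 held 40 adult and 1311 aged cells, and the one led by Ctla2a 933 and 65.

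Female and male cells could be separated by Xist and Y-linked UMIs, since both pools held both sexes. In blood endothelial-like cells Trpv4, Wwtr1 and Klf2 had the same direction in both. Female Trpv4 was at 0.84 (0.11 to 1.65) and male Trpv4 at 1.92 (1.25 to 2.82). For Wwtr1 the female ratio was 0.77 (0.66 to 0.88) and the male ratio 0.44 (0.32 to 0.56). For Klf2 they were -0.57 (-0.66 to -0.47) and -0.51 (-0.62 to -0.39). Female cells had Piezo1 at 0.44 (0.22 to 0.66), and the male interval, -0.31 to 0.16 around -0.07, held 0. In lymphatic cells Klf4 was lower in both sexes, at -0.46 (-0.66 to -0.27) and -0.77 (-1.01 to -0.54). Klf2 was lower in female lymphatic cells, 1205 against 724 CPM in 141 and 39 cells, and higher in male ones, 667 against 948 CPM in 96 and 35 cells. The difference between the sexes was not tested, since each is still 1 pool per age.

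**Figure D4:**
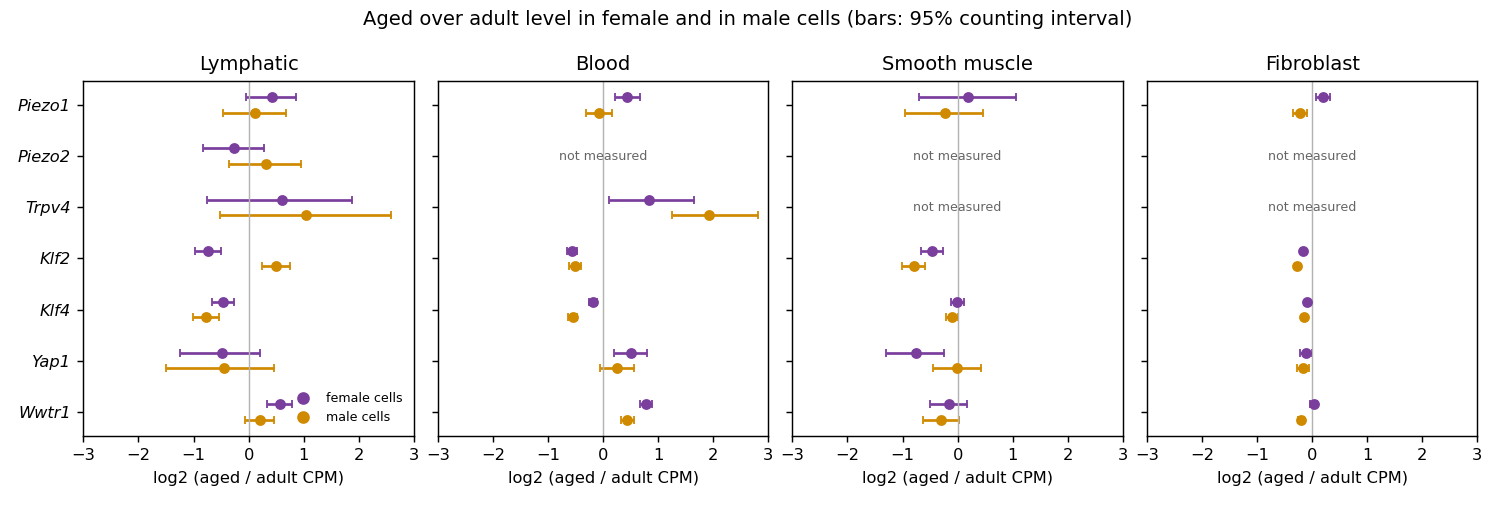
Log2 ratio of aged over adult CPM of each gene in female (purple) and male (amber) cells of the 4 classes, with 95% counting intervals as bars. Blood endothelial Klf2, Klf4 and Wwtr1 lie on one side of 0 in both sexes, and lymphatic Klf2 lies on opposite sides.

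Klf2 and Klf4 can also be induced when tissue is handled and digested, as immediate early genes are. Of 18 immediate early genes, 13 of 17 measured in lymphatic cells were lower by 1.5-fold or more in the aged library and none was higher, with a median log2 ratio of -0.81. The shares of all measured genes past 1.5-fold given above for each class are the background for this list and those that follow: 8.31% higher and 9.39% lower in lymphatic, 4.50% and 5.11% in blood endothelial-like and 1.79% and 3.68% in fibroblast-like cells. For smooth muscle they were 1.33% and 19.9% with all cells, and 3.72% and 9.94% without those with epithelial markers. Fos went from 3077 to 1225 CPM and Egr1 from 2602 to 866 CPM. In blood endothelial-like cells 13 of 18 were lower, with a median of -0.77, and Btg2 went from 784 to 346 CPM. In smooth muscle-like cells 11 of 18 were lower (median -0.64), and without the cells with epithelial markers 3 of 18 were, Egr1, Egr2 and Socs3 (median -0.42). In fibroblasts 2 of 18 were lower, Fos and Jun (median -0.14). In the class sums, Klf2 and Klf4 lay above the median of the list in both endothelial classes, and Klf2 lay below it in fibroblasts and smooth muscle. Within clusters this differed: in blood capillary-like cells the list median was -0.22, with Klf2 at -0.66 and Klf4 at -0.54 below it, and in capillary-like lymphatic cells it was -0.36, with Klf4 at -0.53 below it and Klf2 at 0.31 above. Whether handling had a part in the KLF values was not tested.

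**Figure D5:**
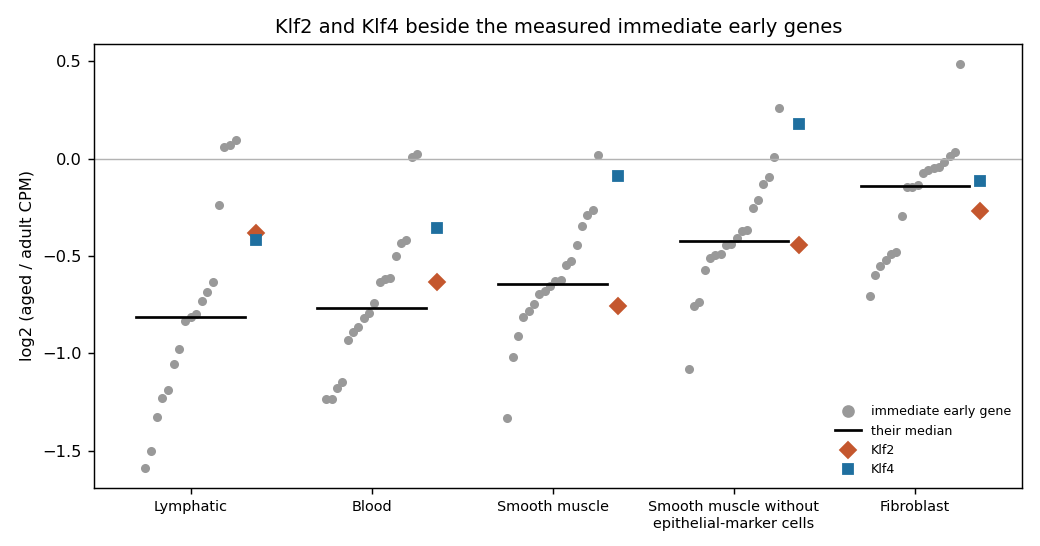
Log2 ratio of aged over adult CPM of each measured immediate early gene (grey points, sorted, with their median as a bar) beside Klf2 (diamond) and Klf4 (square) in each class. The lists have medians of -0.81 in lymphatic and -0.77 in blood endothelial-like cells, and both KLF factors lie above these.

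Of 20 known YAP and TAZ targets, 12 were measured in blood endothelial-like cells and 3 were higher by 1.5-fold or more, none lower. They were Ccn2, a secreted matrix-associated protein, at 1.16 (49.4 to 111 CPM), Myof at 0.63 and Rbms3 at 0.59, while the median of the list was -0.05. Here and in the lists that follow, higher and lower mean by 1.5-fold or more, and the counting intervals of Tgfb2, Gja4, Foxc2, Krit1, Mob1b and Tmem63b in lymphatic cells reached 0. In lymphatic cells none of 12 was higher and 3 were lower: Amotl2 at -1.33 (133 and 15 UMIs), Tgfb2 at -0.73 and Asap1 at -0.65, with a list median of -0.17. Without the epithelial-marker cells, 5 of 16 were lower in smooth muscle, among them Ccn1 at -1.17 (267 to 118 CPM), F3 at -1.25 and Amotl2 at -1.21, and Fjx1 was higher at 1.35. In fibroblasts 2 of 14 were lower, Amotl2 at -1.05 and F3 at -0.75. Amotl2 encodes a junction protein that binds YAP and is itself a target.

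Among 21 genes of the Hippo pathway, Tead4, a DNA-binding partner of YAP and TAZ, was higher in both endothelial classes, at 1.01 (61.8 to 125 CPM) in blood endothelial-like and 0.84 (34.3 to 62.2 CPM) in lymphatic cells. It was the only one of 16 measured that passed 1.5-fold in blood endothelial-like cells. In lymphatic cells 4 of 15 were higher, Tead4, the kinase gene Stk3 at 0.67, Dchs1 at 0.95 and Mob1b at 0.61, and only Amotl2 was lower. With the same cells left out, 2 of 16 were lower in smooth muscle, Stk3 at -0.78 and Amotl2. In fibroblasts 1 of 17 was lower, again Amotl2.

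Of 23 endothelial genes that respond to flow, 3 of 20 measured in blood endothelial-like cells were higher and 2 lower. Cyp1b1 was at 1.44 (107 to 294 CPM) and S1pr1, the sphingosine 1-phosphate receptor, at 0.74 (283 to 474 CPM). Nos3 was at 0.64 (241 to 377 CPM). Kdr, the main receptor for VEGF-A, was at -0.68 and the Notch ligand Dll4 at -0.84. In lymphatic cells 1 of 19 was higher, Thbd at 0.61 (205 to 313 CPM), and 5 were lower. The lower ones were Sox18 at -1.40 (94 and 10 UMIs), Dll4 at -1.19, Adm at -0.79, the connexin gene Gja4 at -0.70 and Foxc2 at -0.64. The list medians were 0.16 in blood endothelial-like and 0.02 in lymphatic cells, beside 0.03 and 0.05 for all genes. In smooth muscle-like cells without the epithelial-marker cells, Gja4 at 0.81 and Foxc2 at 0.76 were higher and Adm at -0.98 and Itga9 at -0.97 lower, of 9, and in fibroblasts Pecam1 was lower at -1.13, 1 of 10. Another list held 16 genes linked to the induction of Klf2 and Klf4, among them genes of the kinase cascade and of the CCM complex. Genes that raise and genes that lower the KLF factors were not kept apart in it, so its median gives no direction. None of 15 measured passed 1.5-fold in blood endothelial-like cells, with a list median of 0.09. In lymphatic cells 2 of 14 were higher, Mef2d at 0.92 and Krit1 at 0.61, none was lower, and the list median was 0.32 beside 0.05 for all genes. In smooth muscle-like cells 2 of 13 were lower, Map3k3 at -1.03 and Heg1 at -0.64, and without the epithelial-marker cells only Map3k3, at -0.76. In fibroblasts 0 of 14 passed. Of 11 other KLF genes, 3 of 9 measured in blood endothelial-like cells were higher and none lower, where Klf3 was at 1.10 (210 to 451 CPM), Klf10 at 0.80 and Klf9 at 0.64. Klf13 was higher in lymphatic cells at 0.69, 1 of 7, and Klf3 was lower in fibroblasts at -0.70, 1 of 8. In smooth muscle-like cells without the epithelial-marker cells Klf5 at -0.76 and Klf12 at -0.64 were lower, of 8.

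Of 21 other force-linked channels and their partners, none of 9 measured in blood endothelial-like cells passed 1.5-fold. In lymphatic cells Mdfic, a partner of Piezo channels, was higher at 0.75 (265 to 447 CPM, 455 and 223 UMIs) and Tmem63b at 0.80 (35 and 18 UMIs), and Trpc1 was lower at -1.42 (49 and 5 UMIs), of 9 measured. Smooth muscle without the epithelial-marker cells had Mdfic lower at -0.67, the only one of 13. In fibroblasts the calcium channel gene Cacna1c was higher at 0.67 (29.4 to 47.5 CPM), the only one of 12.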

How the data were processed

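RNA of single cells was measured in 1 adult and 1 aged library. The deposited values are the natural log of 1 plus UMIs scaled to 10000 per cell, as the values themselves show. Seurat 5.0.3 and the builds GRCm39 and mm10 are named, without their roles, per the submitters' processing notes, and no source used here gives the aligner or cell filters. Every value gave a whole UMI count (100% within 0.01), so counts were recovered, but no count test was possible with 1 library per age. The aged table took its gene names from the adult table, row by row. Each member's row matched its own row best over the 6977 shared cells.

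Clusters came from 2000 variable genes (without members, listed genes or sex-linked, mitochondrial, ribosomal and haemoglobin genes), 30 principal components, 15 neighbours and Leiden resolution 1. Classes were named where the markers' mean log2 difference was at least 1 and at least 3 markers were found in 10% of cells, with a fallback of 50% for fibroblasts. No doublet caller was run. Classes rebuilt in this way can differ from the study's own. Tools were numpy 2.4.6, scipy 1.17.1, scikit-learn 1.9.0, igraph 0.11.9 and pandas 2.3.3. The ratios and their intervals were run on simulated Poisson sums, the model the intervals assume. These sums hold no added spread between cells or mice, so the run checks the computation only. Levels have exact Poisson intervals, shares Clopper-Pearson intervals and ratios exact conditional binomial intervals, all at 95%. The ratio intervals leave out the added 1 CPM, so the log2 ratio of a sparse gene can lie near or past an edge. A count of 0 was set to 3 counts to give a fold, which leaves out the counting error of the higher level. Text names all 7 members, up to 4 genes per other list and class with the largest ratio past 1.5-fold, and the 3 genes most alike to each member, of which 1 is not reported here. Mob1b, Thbd and Foxc2 in lymphatic cells and Nos3 in blood endothelial-like cells were named after their values were seen. Members and lists were chosen with earlier results of these data known.

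Alternatives covered the cells counted, the table read, class definition, resolution, depth, weighting, sex, pseudocount and filter. Centring on the median of all genes and leaving out cells with an epithelial marker UMI were added after seeing the data.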

Additional observations from a re-analysis of the deposited data

Results flagged for a closer look

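Female and male cells gave opposite signs of the age ratio for 2 results, beyond counting error in each sex. Klf2 in lymphatic endothelial-like cells was at -0.73 in female and at 0.50 in male cells. Piezo1 in fibroblast-like cells was at 0.19 in female and at -0.21 in male cells. The difference between the sexes was not tested, since each sex is 1 pool per age.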

How the results depend on the processing

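The count of members past 1.5-fold was 2 in lymphatic, 3 in blood endothelial-like and 1 in smooth muscle-like cells. With cells thinned to 3000 UMIs, it was 0 in each of these. It was also 0 in each with all cells as deposited, but the aged side then held the 6977 copies of adult cells. That setting compares partly the same cells, so it cannot show whether the counts hold. Read from the copies of adult cells in the aged table, the lymphatic count was 0. With classes from each cell's own marker UMIs it was 0 in lymphatic, 1 in blood endothelial-like (Trpv4) and 0 in smooth muscle-like cells, and Yap1 in lymphatic cells was at 0.11, the opposite sign. The smooth muscle count was also 0 at resolution 2, as a mean over cells, with centred ratios and without epithelial-marker cells. The lymphatic count was 1 as a mean over cells and without epithelial-marker cells (Trpv4), in female cells (Klf2) and in male cells (Klf4). The blood endothelial count was 1 in male cells and with clusters weighted equally (Trpv4). The class with the highest level matched in both libraries for 4 of 7 members in female cells and with clusters weighted equally. The causes were not tested. Over all alternatives, blood endothelial Trpv4 ran from 0.81 to 1.92, Wwtr1 from 0.31 to 0.77 and Klf2 from -0.72 to -0.25, and lymphatic Klf4 from -0.77 to -0.13, while lymphatic Klf2 ran from -0.73 to 0.50. Of 304 ratios under alternatives, 228 stayed within the counting interval and 76 did not. The sign changed in 22, 1 of them from a ratio past 1.5-fold (lymphatic Yap1), 6 for smooth muscle Klf4 and 1 for lymphatic Klf2, in male cells. No paired analysis was possible because each age is 1 library. Lymphatic values are limited by 89 aged cells.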
